A study of Mus musculus with 6 samples.

Results

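The genes described here are 37 mouse genes of the response to low oxygen and of glycolysis, chosen by symbol for their known roles. They were chosen with earlier results of these data known, so counts over them describe the list and do not test it. A probe set, the group of probes that reads 1 transcript on an Affymetrix array, was counted for a gene where its annotation gave that gene's symbol and no other. By that rule 32 of the 37 genes were measured, with 64 probe sets, among 12393 genes measured in all. Each gene is given by its brightest probe set, the one with the highest mean over the arrays, unless another is named. The annotation paired no probe set with Gpi1, Eno1 or Ankrd37, which were not analysed here. The 2 probe sets of Gapdh and the 3 of Bnip3l carried further symbols and were left out.

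RNA came from mammary tumours of adult F1 females of 2 crosses, in which an AKR/J or a DBA/2J parent was mated to a carrier of PyMT, the polyomavirus middle T antigen. The study asked how basal expression differs between the tumours of these genotypes. There were 3 arrays of (AKR/J x PyMT)F1 tumours (AKR F1) and 3 of (DBA/2J x PyMT)F1 tumours (DBA F1), so the PyMT transgene is common to both crosses. The labels do not name the strain of the PyMT parent or the promoter that drives the transgene, and they give no tumour size, no tumour stage and no statement that the 3 samples of a cross came from 3 animals. The p-values therefore measure the spread between these samples.

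As background, cells short of oxygen stabilise HIF1A, the oxygen-regulated subunit of hypoxia-inducible factor (HIF). Prolyl hydroxylases encoded by the Egln genes mark it for destruction when oxygen is present. HIF raises transcription of glucose transporters, glycolytic enzymes, kinases that keep pyruvate out of the mitochondria, and factors that act on vessels, acidity and collagen. Solid tumours often hold poorly perfused regions, and many of them also run glycolysis at a high rate when oxygen is at hand.

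The deposited values are log2 levels, and array medians lay between 7.52 and 7.57. Array SDs were 1.76 to 1.91 in AKR F1 and 1.98 to 2.02 in DBA F1 tumours. Bright probe sets tended to lie lower in AKR F1 tumours whatever their function. The median difference over probe sets was 0.23 in the third decile of mean level and -0.21 in the brightest decile. The epithelial markers Epcam and Krt8 were near the top of the scale on all arrays, with Epcam at 13.14, 12.94 and 13.17 in AKR F1 and 13.09, 12.78 and 12.96 in DBA F1 tumours, and Krt8 between 12.13 and 12.75. Some other luminal markers, given below, were not level between the crosses. AKR F1 replicate 2 had correlations of 0.915 to 0.965 with the other arrays over all probe sets, among them the lowest of all pairs. DBA F1 replicate 1 had the highest mean of skeletal muscle markers. These are bulk samples, so fewer cells of a type and less RNA per cell cannot be told apart.

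Differences are AKR F1 minus DBA F1 on the log2 scale, so a negative value means a lower level in AKR F1 tumours. The level of 31 of the 32 hypoxia and glycolysis genes was lower in AKR F1 tumours, a direction shared by 45.2% of all genes. Their median difference was -0.68, against 0.05 over all genes. With the median of probe sets of like brightness subtracted from each, it was -0.47, and 27 of the 32 remained negative. So adjusted, Hk1 (0.20), Pfkl (0.40), Aldoc (0.13), Pkm (0.07) and Ddit4 (0.21) were positive, and Ldha was at -0.02. No member passed limma's test over all 22626 probe sets (adjusted p under 0.05), a test that 0.0972% of probe sets passed, so none can be called changed. At an unadjusted p under 0.05 there were 14 members lower in AKR F1 tumours, where 12.6% of all genes were, and 0 members higher, where again 12.6% of all genes were. In 14 members all 3 AKR F1 values lay below all 3 DBA F1 values, which held for 15.2% of genes. In 0 members they all lay above, which held for 23.2% of genes. The 14 members of these counts are the same except for P4ha1, in the first alone, and Mxi1, in the second alone.

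**Figure D1:**
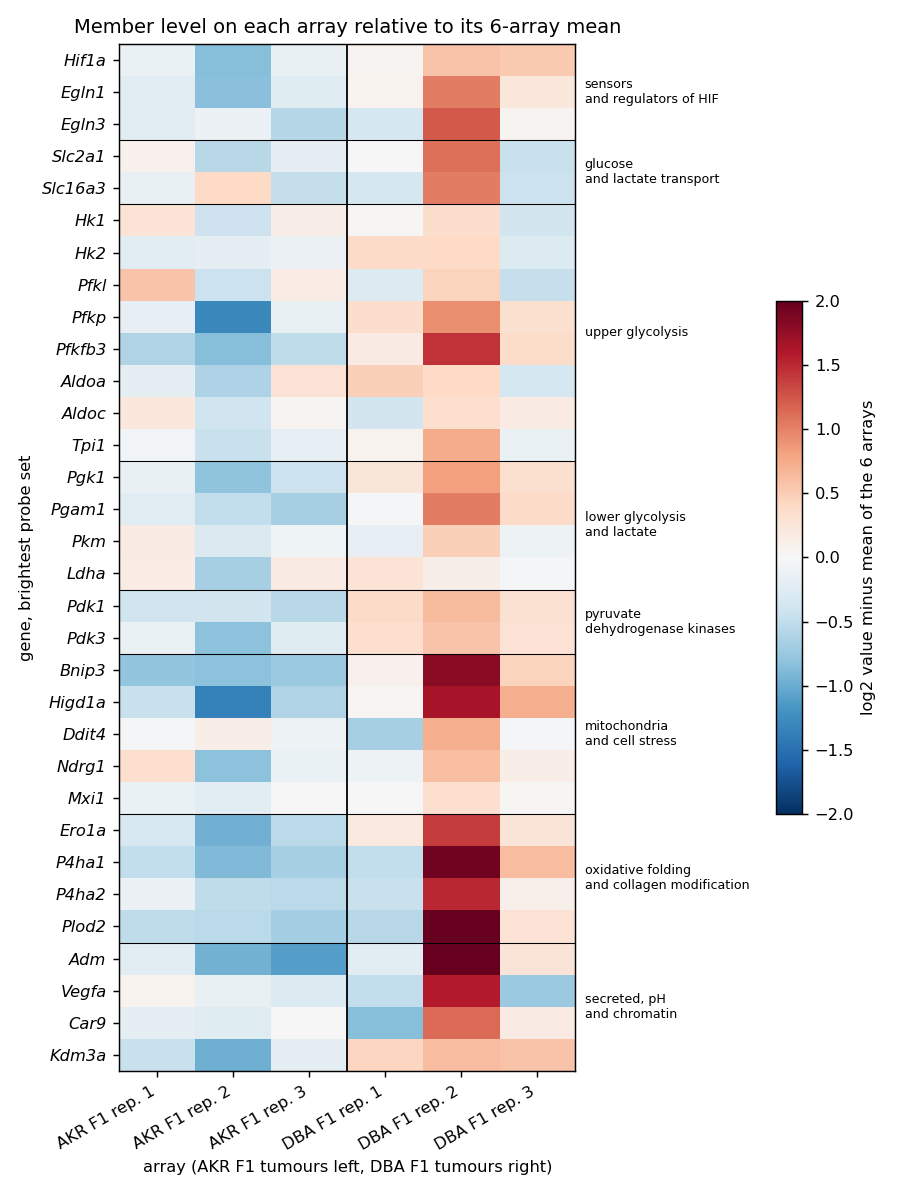
Level of the 32 measured genes on each array, as the log2 value minus the gene's mean over the 6 arrays (colour), with AKR F1 arrays left of the line and DBA F1 arrays right of it, grouped by role; Adm on DBA F1 replicate 2 exceeds the colour scale and takes its end colour. The DBA F1 replicate 2 column is the reddest for 29 of the 32 genes, and the AKR F1 replicate 2 column is the bluest for 20.

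The values were uneven within the crosses. DBA F1 replicate 2 held the highest level of 29 of the 32 members, while only 12.1% of all genes peaked on that array. The exceptions were Aldoa and Ldha, highest on DBA F1 replicate 1, and Pfkl, highest on AKR F1 replicate 1. At the other end, AKR F1 replicate 2 held the lowest level of 20 members, as it did for 35.0% of all genes. Averaged over members, array levels were 9.76, 9.34 and 9.62 in AKR F1 tumours and 9.85, 10.88 and 10.01 in DBA F1 tumours. The averages of the crosses did not overlap, but DBA F1 replicate 1 stood only just above AKR F1 replicate 1, and DBA F1 replicate 2 stood apart from all others. Without DBA F1 replicate 2 the median difference was -0.24, with 23 of 32 members negative.

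The promoters of these genes were searched for the short core that HIF binds. The core was taken as ACGTG or GCGTG on either strand, which reads CACGT or CACGC when it lies on the strand opposite to the gene. It was searched in the 300 bases from 250 before to 50 after each gene's outermost start, from RefSeq sequences of GRCm38.p6, and is shown in capitals. The core was found for 24 of 30 measured members with a sequence (80.0%), for 57.7% of 9882 genes on the array and for 43.8% of all 27025 genes of the table. Among members whose crosses did not overlap it was found for 13 of 14, and among the others for 11 of 16. Members' promoters were also richer in G and C, with a median of 65.7% against 59.3% for genes on the array. The median was 67.3% for the 14 members without overlap and 63.7% for the 16 others. The part of base composition in these shares was not tested. Members were chosen as genes of the response to low oxygen and of glycolysis, so their share of the core is a description and no test. The longer palindrome CACGTG, which overlaps the core and is also bound by MYC and other factors, was in 3 of 30 members' promoters and in 9.35% of those of genes on the array. The sequences below are of the 4 members with the smallest p among those whose crosses did not overlap, followed by the 2 members with the largest p as a contrast.
Pdk1, chr2:71872974-71873273, plus strand: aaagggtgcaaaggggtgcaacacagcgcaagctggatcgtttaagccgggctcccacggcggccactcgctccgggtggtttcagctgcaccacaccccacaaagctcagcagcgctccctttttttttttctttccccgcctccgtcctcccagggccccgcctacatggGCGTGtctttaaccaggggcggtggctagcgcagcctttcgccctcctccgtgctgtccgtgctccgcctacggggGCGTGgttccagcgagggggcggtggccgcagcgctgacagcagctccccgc
Kdm3a, chr6:71632868-71633167, minus strand: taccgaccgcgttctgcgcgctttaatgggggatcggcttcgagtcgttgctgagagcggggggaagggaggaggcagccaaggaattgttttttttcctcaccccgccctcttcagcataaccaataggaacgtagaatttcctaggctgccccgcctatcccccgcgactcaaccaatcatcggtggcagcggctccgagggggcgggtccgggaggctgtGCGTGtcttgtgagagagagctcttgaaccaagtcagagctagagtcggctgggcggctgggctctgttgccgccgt
Pgk1, chrX:106186850-106187149, plus strand: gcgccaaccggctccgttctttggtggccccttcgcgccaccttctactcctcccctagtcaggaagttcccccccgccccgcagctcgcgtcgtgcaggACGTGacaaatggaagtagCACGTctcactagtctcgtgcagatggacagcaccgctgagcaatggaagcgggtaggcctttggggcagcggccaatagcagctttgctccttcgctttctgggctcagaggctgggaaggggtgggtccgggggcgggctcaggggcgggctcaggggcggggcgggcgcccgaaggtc
Pfkfb3, chr2:11553880-11554179, minus strand: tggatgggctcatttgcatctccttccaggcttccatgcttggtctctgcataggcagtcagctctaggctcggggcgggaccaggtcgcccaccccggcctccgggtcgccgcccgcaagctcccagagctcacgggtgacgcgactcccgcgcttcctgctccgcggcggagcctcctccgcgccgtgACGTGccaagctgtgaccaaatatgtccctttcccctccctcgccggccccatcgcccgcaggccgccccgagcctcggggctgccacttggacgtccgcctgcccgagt
Ddit4, chr10:59951721-59952020, minus strand: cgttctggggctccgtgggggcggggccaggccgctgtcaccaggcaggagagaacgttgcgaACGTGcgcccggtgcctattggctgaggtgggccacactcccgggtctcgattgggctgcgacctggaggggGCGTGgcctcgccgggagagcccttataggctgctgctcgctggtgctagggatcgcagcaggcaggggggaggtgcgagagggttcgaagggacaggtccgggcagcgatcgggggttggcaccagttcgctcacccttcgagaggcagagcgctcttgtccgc
Hk1, chr10:62379859-62380158, minus strand: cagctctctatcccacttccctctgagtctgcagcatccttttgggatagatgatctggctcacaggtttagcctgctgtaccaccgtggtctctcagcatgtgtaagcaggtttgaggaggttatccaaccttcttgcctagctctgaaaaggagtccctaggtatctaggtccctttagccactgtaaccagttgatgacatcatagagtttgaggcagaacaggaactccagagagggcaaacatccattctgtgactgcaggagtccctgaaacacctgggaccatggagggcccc
The Pdk1, Pgk1 and Ddit4 windows hold 2 copies of the core, those of Kdm3a and Pfkfb3 hold 1, and that of Hk1 holds 0. Pdk1, Pfkfb3 and Hk1 each have 2 listed starts and Kdm3a has 3. Only the outermost was searched, so these counts hold for that start alone. Ddit4, with a difference of -0.00, and Pdk1, with -0.87, thus have the same number. A match is a description of the letters and not of a bound site.

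Hif1a encodes the regulated subunit itself. Its level was 10.19, 9.47 and 10.16 in AKR F1 tumours and 10.37, 10.89 and 10.84 in DBA F1 tumours. The crosses did not overlap, and AKR F1 replicate 2 was the lowest by a wide margin. The difference was -0.76 (SE 0.243, adjusted p = 0.138 by limma). HIF1A activity is known to be set mainly by protein stability, which arrays do not read. The 3 dimmer Hif1a probe sets did not all agree in sign with it. A probe set at 7.09, 6.92 and 6.64 in AKR F1 and 7.39, 8.67 and 7.93 in DBA F1 tumours gave -1.12, and another at 7.30, 6.84 and 7.18 in AKR F1 and 7.24, 7.80 and 7.81 in DBA F1 tumours gave -0.51. The dimmest, at 7.05, 6.76 and 6.95 in AKR F1 and 6.76, 6.67 and 6.67 in DBA F1 tumours, ran the other way with 0.22. That is close to 0.20, the median difference of all probe sets of like brightness. For probe sets as bright as the brightest Hif1a one, that median was -0.21.

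The prolyl hydroxylases Egln1 and Egln3 restrain HIF and are themselves HIF targets, so they form a feedback. Egln1 had levels of 8.79, 8.18 and 8.78 in AKR F1 tumours and 9.10, 10.05 and 9.23 in DBA F1 tumours. The crosses did not overlap, with a difference of -0.88 (SE 0.294, adjusted p = 0.146 by limma) that was -0.58 without DBA F1 replicate 2. A second Egln1 probe set, at 8.70, 8.64 and 8.39 in AKR F1 and 8.57, 9.89 and 8.55 in DBA F1 tumours, overlapped and gave -0.43, and 0.015 without DBA F1 replicate 2. Egln3 had 10.51, 10.62 and 10.18 in AKR F1 tumours and 10.39, 11.96 and 10.79 in DBA F1 tumours. Here DBA F1 replicate 2 stood far above the other arrays, and the difference of -0.61 became -0.15 without it. A second Egln3 probe set gave -0.60, and 0.049 without it.

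Slc2a1 encodes GLUT1, the widespread glucose transporter, and Slc16a3 encodes MCT4, which exports lactate. Slc2a1 was at 9.23, 8.59 and 8.94 in AKR F1 tumours and 9.12, 10.24 and 8.70 in DBA F1 tumours. Slc16a3 was at 7.22, 7.77 and 6.89 in AKR F1 tumours and 7.02, 8.39 and 6.94 in DBA F1 tumours. For both transporters the crosses overlapped and DBA F1 replicate 2 was the highest array. Their differences of -0.44 and -0.16 became 0.01 and 0.31 without that array. The other 2 Slc2a1 probe sets stayed negative: one gave -0.57, and -0.23 without DBA F1 replicate 2, and the other did not overlap and gave -0.86, and -0.52 without it. Slc16a3 has no further probe set.

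In upper glycolysis, from glucose to the triose phosphates, the difference was negative for 7 of 8 measured genes and the crosses of 2 did not overlap. The first of these was Pfkfb3, which makes an allosteric activator of phosphofructokinase. Its level was 7.18, 6.92 and 7.26 in AKR F1 tumours and 7.93, 9.21 and 8.13 in DBA F1 tumours. The difference was -1.31 (SE 0.330, adjusted p = 0.108 by limma), or 2.47-fold lower in AKR F1 tumours, and was -0.91 without DBA F1 replicate 2. A dimmer Pfkfb3 probe set, at 6.28, 7.01 and 6.10 in AKR F1 and 6.08, 6.13 and 5.93 in DBA F1 tumours, gave 0.41 with overlapping crosses. The median difference of all probe sets as dim as that one was 0.23, and 0.02 for those like the brightest Pfkfb3 probe set. The second was Pfkp, the platelet-type phosphofructokinase, at 8.99, 7.87 and 9.01 in AKR F1 and 9.52, 10.09 and 9.48 in DBA F1 tumours. Its difference of -1.07 (SE 0.340, adjusted p = 0.137 by limma) drew on a low AKR F1 replicate 2 as well as a high DBA F1 replicate 2. A second Pfkp probe set overlapped and gave -0.25, and 0.17 without DBA F1 replicate 2.

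The liver-type phosphofructokinase Pfkl was the 1 member with a positive difference, 0.19 (SE 0.323). It was at 12.51, 11.51 and 12.10 in AKR F1 tumours and 11.68, 12.40 and 11.49 in DBA F1 tumours, and the crosses overlapped fully. Hexokinases trap glucose in the cell. Hk1, the housekeeping form, was at 11.45, 10.77 and 11.32 in AKR F1 tumours and 11.21, 11.54 and 10.82 in DBA F1 tumours, a difference of -0.01. Another Hk1 probe set disagreed, at 10.45, 9.70 and 9.82 in AKR F1 against 8.45, 10.22 and 8.37 in DBA F1 tumours, a difference of 0.98 (adjusted p = 0.245 by limma) that was 1.58 without DBA F1 replicate 2. On it DBA F1 replicates 1 and 3 were low and replicate 2 lay within the AKR F1 range. Hk2, the inducible form, averaged 8.74 ± 0.05 in AKR F1 and 9.08 ± 0.38 in DBA F1 tumours (mean ± SD over 3 arrays each).

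Aldolases split the doubly phosphorylated sugar, and Tpi1 interconverts the products. Aldoa averaged 13.03 ± 0.46 in AKR F1 and 13.38 ± 0.46 in DBA F1 tumours, and Aldoc averaged 11.68 ± 0.32 in AKR F1 and 11.76 ± 0.37 in DBA F1 tumours (mean ± SD over 3 arrays each). Both differences, -0.35 and -0.08, were smaller than the spread within a cross. Aldoa is the aldolase of muscle, and its highest array, DBA F1 replicate 1 at 13.69, was also the one richest in muscle markers. The part of muscle in its level was not tested. Tpi1 was at 11.95, 11.56 and 11.85 in AKR F1 tumours and 12.07, 12.75 and 11.87 in DBA F1 tumours, a difference of -0.44 with overlapping crosses, and of -0.18 without DBA F1 replicate 2. Its other 2 probe sets did not overlap and gave -0.48 and -1.18.

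In lower glycolysis, from the triose phosphates to lactate, Pgk1 and Pgam1 had crosses that did not overlap. Pgk1, which makes the first ATP of the pathway, was at 12.26, 11.61 and 11.98 in AKR F1 and 12.65, 13.23 and 12.73 in DBA F1 tumours. All 3 DBA F1 arrays of this probe set stood above its highest AKR F1 array, with a difference of -0.92 (SE 0.225, adjusted p = 0.105 by limma) that was -0.74 without DBA F1 replicate 2. An almost equally bright Pgk1 probe set, at 12.27, 11.43 and 11.86 in AKR F1 and 12.23, 13.05 and 12.36 in DBA F1 tumours, overlapped and gave -0.69, and -0.44 without that array. The remaining, dimmer one did not overlap and gave -0.52. Pgam1, a phosphoglycerate mutase, was at 10.37, 10.09 and 9.93 in AKR F1 and 10.54, 11.61 and 10.97 in DBA F1 tumours, a difference of -0.91 (SE 0.276, adjusted p = 0.130 by limma). Pkm and Ldha, which make pyruvate and lactate, showed no such separation. Ldha was at 12.99, 12.18 and 13.00 in AKR F1 tumours and 13.12, 12.96 and 12.80 in DBA F1 tumours, a difference of -0.24. Only AKR F1 replicate 2 was low, and without it the difference was 0.04. Pkm averaged 12.23 ± 0.22 in AKR F1 and 12.37 ± 0.35 in DBA F1 tumours (mean ± SD over 3 arrays each).

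Gapdh could be read only through the array's control probe sets. The one at its 3′ end gave 13.04, 12.80 and 12.89 in AKR F1 tumours and 13.04, 13.57 and 12.93 in DBA F1 tumours, with DBA F1 replicate 2 highest. The one at its 5′ end gave 13.0, 12.5 and 12.6 in AKR F1 and 11.8, 13.5 and 12.2 in DBA F1 tumours. On that one and on the middle one, DBA F1 replicate 2 was highest and DBA F1 replicates 1 and 3 lay below all AKR F1 arrays. The reading of Gapdh thus depends on the probe set. The 3′ value exceeded that at its 5′ end by 0.05, 0.31 and 0.27 in AKR F1 tumours and 1.20, 0.12 and 0.75 in DBA F1 tumours. This gap is a sign of RNA or labelling quality, and it was the widest on DBA F1 replicate 1 and narrow on replicate 2. Its part in the members' levels was not tested.

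The pyruvate dehydrogenase kinases switch off the enzyme that turns pyruvate into acetyl-CoA in mitochondria, and the crosses overlapped for neither of those measured. Pdk1 was at 8.44, 8.48 and 8.29 in AKR F1 tumours and 9.22, 9.46 and 9.15 in DBA F1 tumours. The gap between the crosses exceeded the range within either, with a difference of -0.87 (SE 0.133), 1.83-fold lower in AKR F1 tumours, and the lowest adjusted p of the members' brightest probe sets (0.0715 by limma). A second, much dimmer Pdk1 probe set, at 4.66, 4.15 and 4.79 in AKR F1 and 6.29, 6.73 and 6.24 in DBA F1 tumours, gave -1.89 (adjusted p = 0.0517 by limma). Pdk1 without DBA F1 replicate 2 still differed by -0.78. Pdk3, a further kinase of the family, was at 8.15, 7.46 and 8.04 in AKR F1 and 8.62, 8.85 and 8.57 in DBA F1 tumours. Its difference was -0.80 (SE 0.204, adjusted p = 0.109 by limma), and -0.71 without DBA F1 replicate 2.

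**Figure D2:**
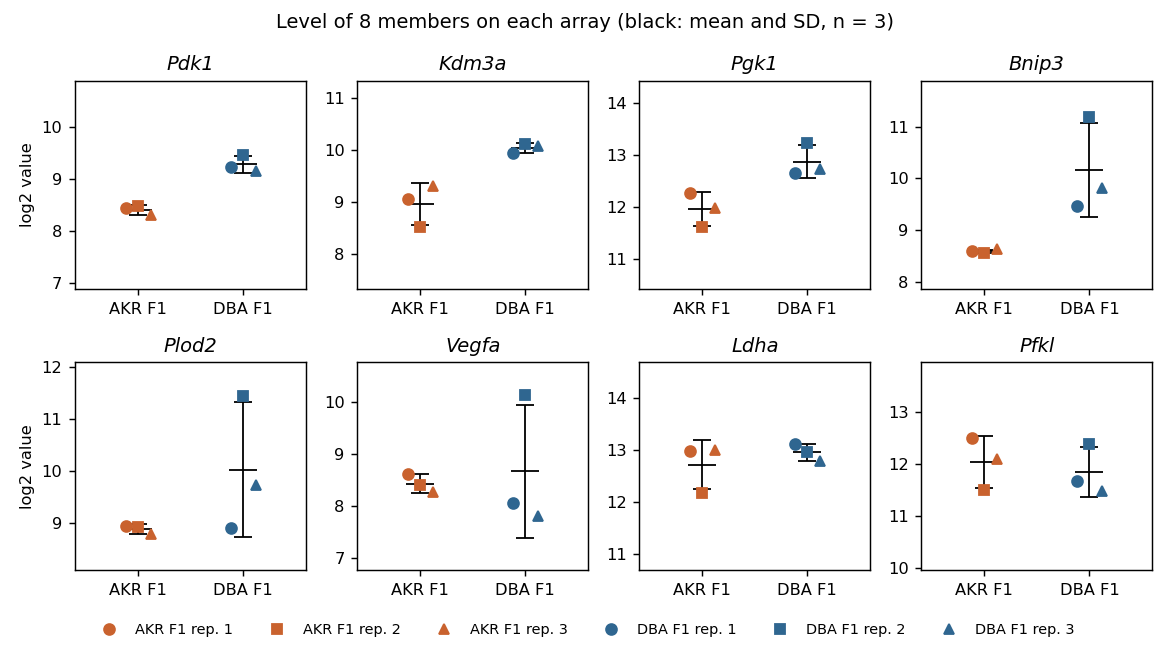
Log2 level of 8 members on each array, AKR F1 left and DBA F1 right in each panel, with the mean and SD of 3 arrays in black and a marker shape per replicate number, which pairs no samples. Pdk1, Kdm3a, Pgk1 and Bnip3 separate by cross, Plod2 and Vegfa are high on DBA F1 replicate 2 (11.43 and 10.14), and Ldha and Pfkl overlap.

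The members that act on mitochondria and cell stress included the largest differences. Bnip3, which drives the removal of mitochondria, was at 8.60, 8.57 and 8.63 in AKR F1 tumours and 9.47, 11.19 and 9.82 in DBA F1 tumours. The AKR F1 arrays were almost equal and all DBA F1 arrays stood well above them, with a difference of -1.56 (SE 0.413, adjusted p = 0.115 by limma), 2.95-fold lower in AKR F1 tumours. Higd1a, a protein of the inner mitochondrial membrane that acts on the respiratory chain, was at 9.39, 8.49 and 9.23 in AKR F1 and 9.86, 11.48 and 10.57 in DBA F1 tumours. Its difference of -1.60 (SE 0.428, adjusted p = 0.116 by limma) was the largest among the members' brightest probe sets, and 2 dimmer probe sets gave -1.38 and -0.78 without overlap. Without DBA F1 replicate 2, Bnip3 differed by -1.05 and Higd1a by -1.18.

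Mxi1, a MAX partner that opposes MYC, was at 9.58, 9.50 and 9.71 in AKR F1 and 9.72, 10.06 and 9.74 in DBA F1 tumours. The crosses were barely apart, between AKR F1 replicate 3 and DBA F1 replicate 1, and the difference was -0.24 (SE 0.140, adjusted p = 0.283 by limma). The median difference of probe sets of like brightness was -0.21, and -0.03 was left with it subtracted. A second Mxi1 probe set overlapped and gave -0.26. Ddit4, an inhibitor of mTOR signalling that answers several stresses, was at 10.98, 11.15 and 10.91 in AKR F1 tumours and 10.35, 11.74 and 10.97 in DBA F1 tumours. The DBA F1 arrays lay on either side of the AKR F1 arrays, which left a difference of -0.00. Ndrg1, a stress-induced differentiation gene, averaged 10.61 ± 0.58 in AKR F1 and 11.03 ± 0.37 in DBA F1 tumours (mean ± SD over 3 arrays each), and its other 4 probe sets gave -0.02 to -0.75.

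Genes of protein folding and collagen modification had large differences with a wide spread among the DBA F1 arrays. Ero1a, which passes electrons to oxygen as disulfide bonds form, was at 9.57, 8.93 and 9.35 in AKR F1 and 10.09, 11.29 and 10.15 in DBA F1 tumours. It was the 1 gene of this group whose crosses did not overlap, with a difference of -1.22 (SE 0.347, adjusted p = 0.121 by limma), and its other 2 probe sets gave -1.59 and -1.56. P4ha1 and P4ha2 encode the catalytic subunits of collagen prolyl hydroxylase. P4ha1 was at 7.68, 7.29 and 7.51 in AKR F1 tumours and 7.68, 10.11 and 8.79 in DBA F1 tumours, a difference of -1.37 (SE 0.554). DBA F1 replicate 1 lay at the level of AKR F1 replicate 1, and the other DBA F1 arrays stood above all AKR F1 arrays. Without DBA F1 replicate 2 the P4ha1 difference was -0.74. P4ha2 was at 7.39, 7.01 and 6.97 in AKR F1 and 7.07, 9.02 and 7.62 in DBA F1 tumours, a difference of -0.78 that was -0.22 without DBA F1 replicate 2. Plod2, which hydroxylates collagen lysines, was at 8.94, 8.91 and 8.77 in AKR F1 and 8.90, 11.43 and 9.73 in DBA F1 tumours. In all of these DBA F1 replicate 2 was the highest array and replicate 3 the next, and the difference of Plod2 was -1.15 with DBA F1 replicate 2 and -0.44 without it. A second Plod2 probe set, at 8.02, 8.28 and 8.17 in AKR F1 and 8.39, 11.51 and 10.14 in DBA F1 tumours, did not overlap and gave -1.86.

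Of the secreted, pH and chromatin genes, Kdm3a and Adm had crosses that did not overlap. Kdm3a encodes a histone demethylase that needs oxygen. It was at 9.05, 8.51 and 9.31 in AKR F1 tumours and 9.93, 10.11 and 10.07 in DBA F1 tumours. The 3 DBA F1 arrays were close to each other, and the difference of -1.08 (SE 0.210, adjusted p = 0.0851 by limma) was -1.04 without DBA F1 replicate 2. Adm, the vasodilator adrenomedullin, was at 6.94, 6.21 and 6.07 in AKR F1 and 6.95, 9.39 and 7.42 in DBA F1 tumours. Its crosses were barely apart, between AKR F1 replicate 1 and DBA F1 replicate 1, and the difference of -1.52 (SE 0.615, adjusted p = 0.184 by limma) was -0.78 without DBA F1 replicate 2.

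Vegfa, the growth factor that draws in vessels, was at 8.63, 8.41 and 8.28 in AKR F1 tumours and 8.06, 10.14 and 7.82 in DBA F1 tumours. DBA F1 replicates 1 and 3 were the lowest arrays and replicate 2 the highest, so its difference of -0.23 (SE 0.578) became 0.50 without that array. A dimmer Vegfa probe set, at 7.60, 6.86 and 7.74 in AKR F1 and 7.79, 9.76 and 7.73 in DBA F1 tumours, gave -1.03, and -0.36 without DBA F1 replicate 2. Car9, a surface carbonic anhydrase, was at 8.11, 8.07 and 8.32 in AKR F1 and 7.45, 9.44 and 8.48 in DBA F1 tumours. Its difference of -0.29 likewise became 0.20 without DBA F1 replicate 2.

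**Figure D3:**
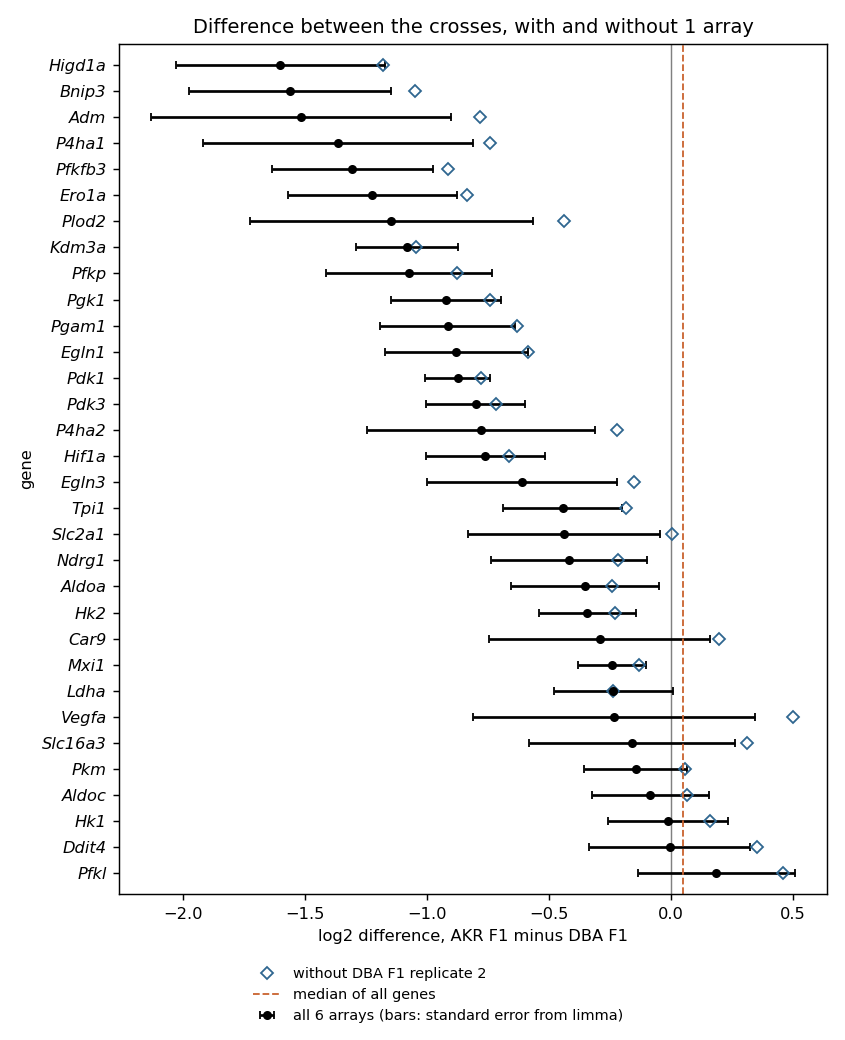
Difference of each member between the crosses (AKR F1 minus DBA F1, log2) with limma's standard error from all 6 arrays (black) and without DBA F1 replicate 2 (open diamonds); the dashed line is the median of all genes, 0.05. The members at the top stay below 0 without that array, while Vegfa, Slc16a3, Car9 and Ddit4 move to positive values.

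The 14 members without overlap at the brightest probe set were Hif1a, Egln1, Pfkp, Pfkfb3, Pgk1, Pgam1, Pdk1, Pdk3, Bnip3, Higd1a, Mxi1, Ero1a, Adm and Kdm3a. All 14 also had their highest level on DBA F1 replicate 2. With DBA F1 replicate 2 left out, the differences of Kdm3a (-1.04), Pdk1 (-0.78) and Pdk3 (-0.71) moved little, while those of Vegfa, Car9, Slc2a1, Slc16a3, Ddit4, Hk1, Aldoc and Pkm turned positive at the brightest probe set. The level of a member on 1 array, less the mean of the other arrays of its cross, had a median over members of 0.33, -0.33 and 0.09 on AKR F1 replicates 1, 2 and 3. On DBA F1 replicates 1, 2 and 3 it was -0.52, 0.83 and -0.33. Over all 64 probe sets of the members, 59 were lower in AKR F1 tumours and 5 were higher, where 45.4% of all probe sets were lower. Of the 64, 25 were lower without overlap (15.8% of all probe sets) and 1 was higher without overlap (23.4% of all probe sets). Of the 20 members with more than 1 probe set, Hif1a, Hk1 and Pfkfb3 had probe sets of both signs.

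**Figure D4:**
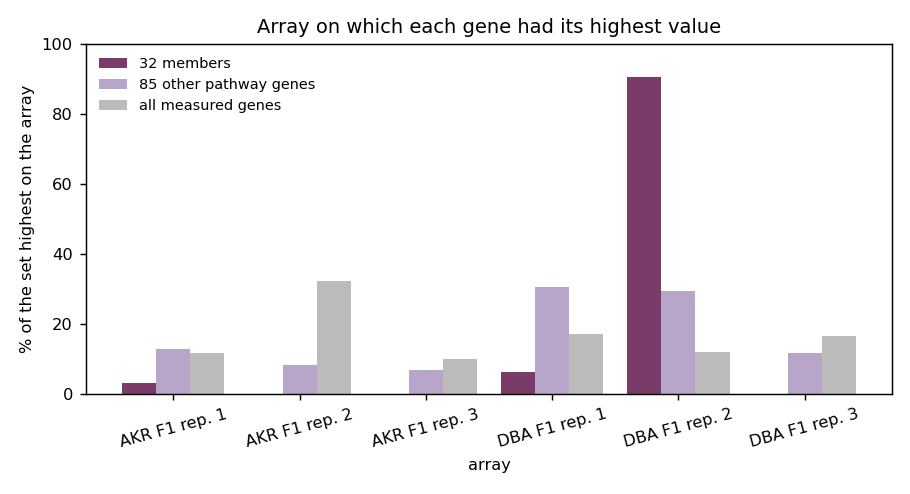
Share of genes (%) whose highest level fell on each array, for the 32 measured members, 85 other genes of the pathway and all 12393 genes. DBA F1 replicate 2 held the peak of 29 members, of 25 pathway genes and of 12.1% of all genes.

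Other genes of the same pathways, from lists chosen by function with earlier results of these data known, were less uniform. Of 85 genes measured of 100 listed, 55 were lower in AKR F1 tumours and the median difference was -0.12. With the median of probe sets of like brightness subtracted, it was -0.035, and 50 of the 85 were negative. So adjusted, the medians were -0.13 for further HIF targets and -0.14 for other genes of glycolysis and pyruvate use. They were 0.03 for HIF subunits and oxygen sensing, and 0.11 for gluconeogenesis and the pentose phosphate pathway. Of the 85, 0 passed limma's test over all probe sets. At an unadjusted p under 0.05 there were 14 lower and 5 higher, where 12.6% of all genes were in each direction. Without overlap there were 18 lower and 7 higher, against 15.2% and 23.2% of all genes. DBA F1 replicate 2 was the highest array for 25 of them (29.4%) and DBA F1 replicate 1 for 26.

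Among 33 further HIF targets measured of 36 listed, the median difference was -0.20 and 21 genes were lower in AKR F1 tumours, 11 of them lower without overlap and 3 of the list higher without overlap. The one with the smallest p went against the members: Sdc4, a cell surface proteoglycan, was at 10.70, 10.49 and 11.06 in AKR F1 tumours and 8.20, 9.05 and 8.52 in DBA F1 tumours. Its difference was 2.16 (adjusted p = 0.0519 by limma), and DBA F1 replicate 2 was the highest DBA F1 array there too. With the mean of its probe sets, Sdc4 differed by 0.99 (adjusted p = 0.124 by limma). Bhlhe41, a circadian repressor, also lay higher in AKR F1 tumours (0.72). Errfi1, which inhibits EGF receptors, and the nuclear receptor Rora lay lower (-1.31 and -0.88).

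Among 27 other genes of glycolysis and pyruvate use measured of 35 listed, the median difference was -0.24 and 20 were negative, with 4 lower and 1 higher without overlap. The 4 with the smallest p were Mpc1 (-1.29), a subunit of the carrier that brings pyruvate into mitochondria, Dld (-1.09), a subunit of pyruvate dehydrogenase, the glycogen branching enzyme Gbe1 (-0.89, and -0.48 without DBA F1 replicate 2) and the phosphoglucomutase Pgm1 (-0.45). Mpc1 and Dld serve pyruvate oxidation, which Pdk1 and Pdk3 restrain, and all 4 lay lower in AKR F1 tumours. Of 13 HIF subunits and oxygen-sensing genes measured of 16 listed, 7 lay lower with a median of -0.02, and 2 were lower and 3 higher without overlap. There Elob, a partner of VHL, differed by -0.51. The prolyl hydroxylase Egln2 (0.44), the HIF subunit Epas1 (0.38) and its partner Arnt2 (0.44) lay higher. After cyclic loess normalization Elob was at -0.30, Egln2 at 0.64, Epas1 at 0.20 and Arnt2 at 0.23. Of 12 genes of gluconeogenesis and the pentose phosphate pathway measured of 13 listed, 7 lay lower with a median of -0.07, and 1 was lower without overlap. They included Rpe (-0.90) and Pgd (-0.25) of the pentose phosphate pathway, and G6pc (0.21) and Fbp2 (0.48) of gluconeogenesis. After cyclic loess Rpe was at -0.70, Pgd at -0.034, G6pc at -0.0013 and Fbp2 at 0.37.

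**Figure D5:**
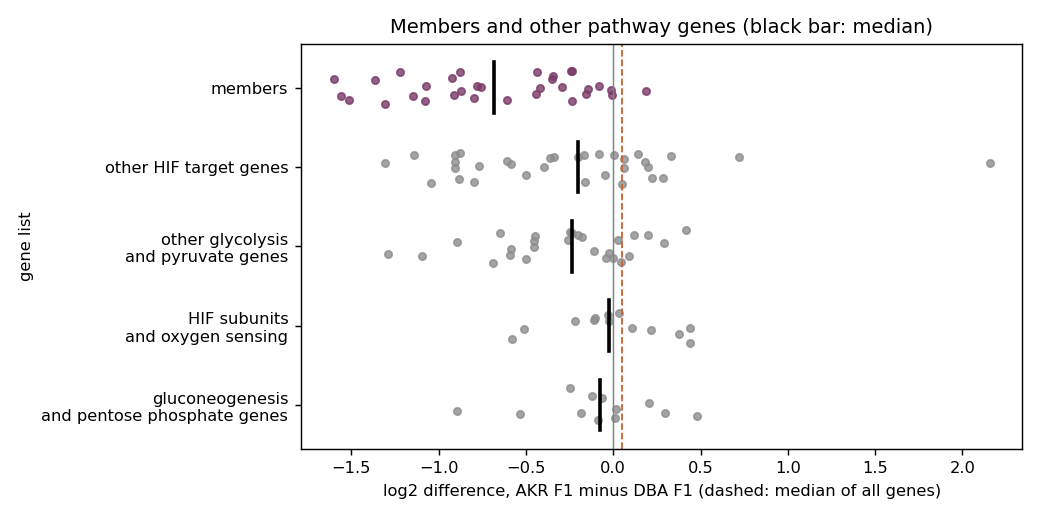
Difference between the crosses (AKR F1 minus DBA F1, log2) for each measured member and for genes of 4 other pathway lists, each point a gene and each black bar a median; the dashed line is the median of all genes. Without adjustment for brightness, members have a median of -0.68, against -0.20, -0.24, -0.02 and -0.07 for the lists from top to bottom. Sdc4 lies at 2.16.

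Markers of other cell types also differed between arrays. The mean of 10 fibroblast markers was 10.03, 8.96 and 10.09 in AKR F1 tumours and 10.32, 8.62 and 10.14 in DBA F1 tumours, lowest on DBA F1 replicate 2 and next lowest on AKR F1 replicate 2. These are the arrays with the highest and the lowest member levels. For 8 of 12 adipocyte markers that were measured it was 7.56, 7.53 and 7.58 in AKR F1 tumours and 9.28, 6.34 and 7.16 in DBA F1 tumours, again lowest on DBA F1 replicate 2. For 16 skeletal muscle markers it was 8.56, 8.35 and 9.65 in AKR F1 tumours and 11.40, 6.52 and 6.46 in DBA F1 tumours, the least being on DBA F1 replicates 2 and 3. The muscle, adipocyte and fibroblast means were thus low on the array where the members were high. Of the 10 fibroblast markers, 7 were at their lowest there, but Postn was at 12.3 there and at most 11.9 in AKR F1 tumours.

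Luminal epithelial markers, 12 in all, averaged 10.41, 10.30 and 10.43 in AKR F1 tumours and 10.09, 9.87 and 10.23 in DBA F1 tumours. Endothelial markers, 10 in all, averaged 7.91, 7.55 and 7.66 in AKR F1 tumours and 7.81, 7.41 and 7.53 in DBA F1 tumours, again lowest on DBA F1 replicate 2. Of the 10, 4 were lower in AKR F1 tumours, and the median difference was 0.08; Plvap (0.47) and Eng (0.49) were higher without overlap, and Emcn (-0.37) was the lowest. The macrophage, neutrophil, T and NK, B and plasma, basal and cell cycle means likewise peaked on an array other than DBA F1 replicate 2. The red blood cell mean did so only narrowly, at 6.998 on AKR F1 replicate 2 and 6.985 on DBA F1 replicate 2. Immediate early genes, 14 in all, averaged 9.12, 8.78 and 9.12 in AKR F1 tumours and 9.41, 9.23 and 9.44 in DBA F1 tumours. These means did not overlap between the crosses, and 6 of the genes were lower and 3 higher without overlap. The smallest p was that of Egr1 (-1.11, adjusted p = 0.0661 by limma), below the 0.0715 of Pdk1.

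Single markers within these lists did peak on DBA F1 replicate 2. Of 10 basal and myoepithelial markers, the contractile genes Acta2, Mylk and Cnn1 were highest on DBA F1 replicate 2. Acta2 was at 10.09, 9.77 and 9.72 in AKR F1 tumours and 10.37, 13.26 and 12.13 in DBA F1 tumours, a difference of -2.06, and Mylk differed by -1.97. Both were lower in AKR F1 tumours without overlap, as was Myh11 (-1.23), while the basal keratins Krt5 and Krt14 were lowest on DBA F1 replicate 2, at 7.43 each. Pou2af1, a B cell coactivator, was at most 5.23 in AKR F1 tumours and at 6.65, 10.09 and 8.27 in DBA F1 tumours, a difference of -3.23. The other B and plasma markers did not peak on that array. Krt19 and Alas2 also had their highest level on DBA F1 replicate 2. The part of these cells and processes in the members' levels was not tested.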

How the data were processed

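Biotin-labelled RNA of 3 AKR F1 and 3 DBA F1 tumours was put on Affymetrix arrays, 1 array a sample, per the labels' protocols. The deposited table holds log2 values of 22690 probe sets, from 3.65 to 14.7. Per the submitters' processing notes, MAS5 and RMA were in use; which made the values is not stated there. The authors' detection calls were not used, so low values can lie at background.

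The 64 control probe sets were left out. Of 22626 others, 20380 carried 1 gene symbol and only these were given a name, while 691 carried several and 1555 none. Source names gave the groups; replicate numbers name samples in accession order and pair none. Crosses were tested by limma (version 3.58.1, R 4.3.3) with lmFit and eBayes, 2-sided, with Benjamini-Hochberg adjustment over all probe sets, after a check on simulated data. That check called 46.0% of 50 probe sets given a change of 1 on the log2 scale, and 88.0% of 50 given 2. The small number of arrays limits precision. Promoters came from RefSeq tables of GRCm38.p6. Plots used Python 3.11.15 and matplotlib 3.10.9.

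The members and all lists were chosen with earlier results of these data known. Values of every array were due for members without overlap, members whose probe sets disagreed in sign, Hif1a, Vegfa, Gapdh and Ldha. Those of Egln3, Slc2a1, Slc16a3, Pfkl, Tpi1, Ddit4, P4ha1, P4ha2, Plod2, Car9 and Sdc4, and further probe sets of a member, were added after the values were seen. So were the endothelial, luminal, fibroblast, basal, B cell and immediate early genes named. Of each pathway list the 4 genes with the smallest p were named. Alternatives were quantile and cyclic loess normalization, median centring, bright probe sets only, 1 mean row per gene, a trended and robust prior, array weights (gene by gene), a looser adjusted p (0.10), and fits without each array or without both AKR F1 replicate 2 and DBA F1 replicate 1. The array that held each member's highest level was also found under 4 alternatives chosen after seeing the data.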

Additional observations from a re-analysis of the deposited data

How the results depend on the processing

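A negative difference was kept by 21 members in all settings they could be fitted in; for the 14 without overlap, leaving out or weighting arrays cannot change the sign, so this says little of stability. The number of members past an adjusted p of 0.05 by limma was 0 as reported, 1 with bright probe sets only (Pdk1, adjusted p = 0.0499; 0.902% of these probe sets passed), 3 without AKR F1 replicate 2 and DBA F1 replicate 1 together (Hif1a, Pdk1 and Kdm3a; 2.90% of probe sets passed), and 8 with array weights (also Pfkfb3, Pgk1, Pdk3, Bnip3 and Higd1a), where 16.4% of all probe sets passed. It was 0 without each array in turn, and 2 at an adjusted p of 0.10 (Pdk1 and Kdm3a, where 3.58% of probe sets passed). Leaving out 1 array at a time gave medians from -0.87 to -0.24, the value without DBA F1 replicate 2. Members lower without overlap then numbered 14 to 19, but the share of all genes rose as well. It went from 15.2% with all arrays to between 16.6% and 24.1%. It was 20.4% without DBA F1 replicate 1, where 19 members did not overlap, and 24.1% without DBA F1 replicate 2, where 14 did not. The median was -0.44 after quantile normalization and -0.47 after cyclic loess, each with 27 members negative. Under both, 14 members were lower without overlap, with P4ha1 in place of Mxi1, where 11.3% and 13.8% of all genes were. Pathway genes past the test numbered 1 with quantile, loess, centring, bright probe sets and the trended prior (Sdc4), 2 without both arrays, 11 with array weights, and 0 to 2 without each array. Of all probe sets, 0.14% to 0.16% passed with quantile, loess, centring and the trended prior. With 1 array left out, the count of 2 came without DBA F1 replicate 1, where 1.16% of all probe sets passed. With the mean of its probe sets Sdc4 did not pass, at 0.99. DBA F1 replicate 2 held the highest level of 28 or 29 members under 4 other settings, added after seeing the data.

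The other 11 members changed sign in at least 1 setting, each at a value the test does not tell from 0, and the cause was not tested. With quantile normalization, Hk1 was at 0.26, Aldoc 0.14, Pkm 0.083, Ddit4 0.25 and the pathway gene Pgd 0.017. With cyclic loess, Hk1 was at 0.20, Aldoc 0.13, Pkm 0.063, Ddit4 0.21 and the pathway gene G6pc -0.0013. With array weights, Hk1 was at 0.32, Aldoc 0.085, Pkm 0.064, Ldha 0.046, Ddit4 0.0097 and Vegfa 0.18. With the mean of its probe sets, Hk1 was at 0.48. With 1 array, or both arrays named above, left out, differences ran from -0.19 to 0.20 for Hk1, -0.048 to 0.46 for Pfkl, -0.62 to 0.025 for Aldoa, -0.29 to 0.095 for Aldoc, -0.26 to 0.060 for Pkm and -0.37 to 0.12 for Ldha. They ran from -0.41 to 0.36 for Ddit4, -0.66 to 0.50 for Vegfa, -0.79 to 0.20 for Car9, -0.77 to 0.0066 for Slc2a1, -0.61 to 0.31 for Slc16a3 and -0.46 to 0.092 for Pgd.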
